A study of Homo sapiens with 5 samples.

Results

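ZBTB7A (Pokemon, LRF) is a transcription factor with a BTB domain and zinc fingers. Its binding sites were mapped by ChIP-seq, the sequencing of DNA recovered with an antibody to the factor, in VCaP cells, an established line from a prostate cancer in which the androgen receptor is expressed. In medium with 5% of a serum depleted of hormones, cells received 10 nM of the androgen DHT for 4 hours (the DHT list, 2 libraries). Cells in full serum, at 10%, gave the FBS list (1 library). Cells in the depleted serum that received vehicle for the same time gave the CSS list (2 libraries). The labels give the FBS library the same treatment text as the others, and that its cells received no DHT was read from the culture condition. The data are 3 peak lists, 1 per condition, so there is no spread between replicates and no p-value between conditions. All cells are of 1 line, and what is seen at its chromosome ends need not hold in other cells.

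The regions described here are the peaks at the distal, long-arm ends of the autosomes. On each of chromosomes 1 to 22, the highest end of any peak in the 3 lists was taken as the end of the chromosome, and a peak belonged to the group where its summit lay within 2 Mb of that point. This gave 995 peaks in DHT, 2429 in FBS and 1246 in CSS, 4670 of the 196770 peaks in all, in lists of 34120, 124868 and 37782 peaks. The rule used position only. The last peak stands in for the telomere, whose own repeats were not examined here, and the last peaks of the lists lay close together, with the last DHT, FBS and CSS peaks of a chromosome at most 85751, 19809 and 27612 bp short of the end point. Positions are on hg19. No hg19 sequence or gene annotation was used, so peaks are given by position and not assigned to genes.

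Human subtelomeric regions, the stretches next to the telomere repeats, are rich in genes and in G and C bases on many chromosomes. Their outermost parts hold sequence that is repeated at several chromosome ends, where short reads are hard to place. ZBTB7A is known to bind G- and C-rich sequence, often at promoters, and acts as a repressor or an activator depending on the gene.

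Over all peaks, ZBTB7A peaks were denser at the long-arm ends than in the rest of the autosomes in each list. This excess was larger in DHT and CSS than in FBS. The DHT list held 22.6 peaks per Mb at the ends and 11.4 per Mb in the rest of chromosomes 1 to 22, a ratio of 1.99 (exact 95% interval 1.87 to 2.12). The FBS list held 55.2 per Mb at the ends and 43.3 per Mb in the rest, a ratio of 1.27 (1.22 to 1.33). The CSS list held 28.3 per Mb at the ends and 12.5 per Mb in the rest, a ratio of 2.27 (2.15 to 2.41). Intervals in this report are exact 95% intervals unless a Newcombe interval is named. They cover counting error only, and since neighbouring peaks are not independent they are too narrow.

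The excess was nearly as large within chromosomes. Had each end held peaks at the density of the rest of its own chromosome, 532.5 DHT, 2000.4 FBS and 586 CSS peaks would have been counted, and the counts found were 1.87, 1.21 and 2.13 times as high. The direction in FBS depended on the peaks that were counted. Limited to a fold enrichment of 5 or more, the ratio of end to rest density was 0.694 (0.630 to 0.764) in FBS, below 1, and it was 1.72 in DHT and 2.01 in CSS. Strong peaks, those whose −log10 q reached 10 or more, gave ratios of 1.31 (1.03 to 1.64) in DHT, 1.70 (1.44 to 1.997) in FBS and 1.66 (1.38 to 1.97) in CSS. Among strong peaks the excess was thus not larger in DHT and CSS than in FBS.

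Density fell with distance from the end in DHT and CSS, and in a flatter and broken way in FBS. In the last 0.5 Mb, DHT had 26.8 peaks per Mb, FBS 63.4 and CSS 34.4. From 1 to 2 Mb the densities were 21.05, 50.9 and 25.7 per Mb, and from 2 to 5 Mb they were 15.7, 55.7 and 18.97 per Mb. In DHT and CSS, each class of distance had a lower density than the next class towards the telomere. In FBS the density was higher from 2 to 5 Mb than from 1 to 2 Mb, and higher from 10 to 20 Mb (51.6 per Mb) than from 5 to 10 Mb (49.5 per Mb). More than 20 Mb from the end, the densities were 11.04 in DHT, 41.9 in FBS and 12.03 per Mb in CSS. Just inside the border of the group, between 1.9 and 2.0 Mb, there were 41 DHT, 112 FBS and 49 CSS peaks, and just outside it, between 2.0 and 2.1 Mb, there were 41, 82 and 48.

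**Figure D1:**
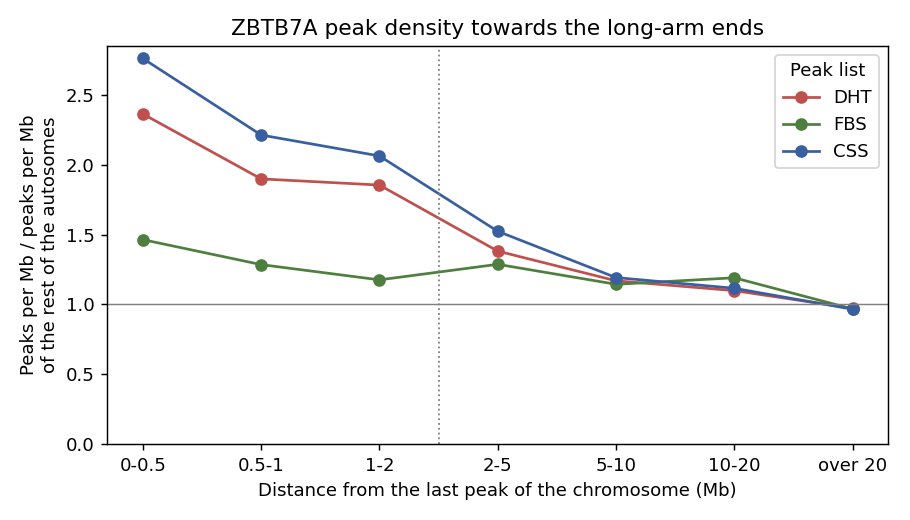
Peaks per Mb in 7 classes of distance from the last peak of the chromosome (x axis, Mb), divided by the peaks per Mb of the rest of the autosomes (y axis), for the DHT, FBS and CSS lists; the dotted line is the 2 Mb border and the grey line marks a ratio of 1. DHT and CSS decline from 2.36 and 2.76 in the last 0.5 Mb, while FBS begins at 1.46 and declines less evenly.

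The opposite ends showed an excess too. The 5 acrocentric autosomes, whose short arms are largely missing from hg19, were left out of the short-arm ends, and on the other 17 the 2 Mb next to the lowest peak held 20.7 peaks per Mb in DHT, 53.8 in FBS and 24.7 in CSS. All 22 autosomes outside both kinds of end held 11.2, 43.2 and 12.3 per Mb, so the short-arm ends stood at 1.85 (1.71 to 1.99), 1.25 (1.19 to 1.30) and 2.01 (1.87 to 2.15) times that level. Against the same part of the 17 chromosomes alone, these ratios were 1.87 (1.73 to 2.01), 1.27 (1.21 to 1.33) and 2.04 (1.90 to 2.18). The long-arm ends of the same 17 chromosomes were somewhat denser than the short-arm ends in DHT (23.8 against 20.7 per Mb, ratio 1.15, 1.03 to 1.27) and in CSS (29.7 against 24.7 per Mb, ratio 1.20, 1.10 to 1.32). In FBS the interval of the ratio, 1.04 (0.976 to 1.11), included 1.

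Peaks at the long-arm ends were also spread over more of the sequence. In windows of 100 kb counted inwards from the last peak, a DHT peak was present in 368 of the 440 end windows (83.6%) and in 59.0% of the 27505 windows of the rest. An FBS peak was present in 94.5% of end windows and 84.0% of the rest, and a CSS peak in 85.0% and 61.9%. Windows with 5 or more peaks made up 11.6% of end windows and 2.53% of the rest in DHT, 55.2% and 40.5% in FBS, and 22.3% and 3.28% in CSS. The median spacing between neighbouring summits was 26515 bp at the ends and 46237 bp in the rest in DHT, 10958 and 10866 bp in FBS, and 21064 and 42346 bp in CSS. In FBS the median spacing was thus nearly the same in both places, although the ends had fewer empty windows. The windows of the rest include unassembled gaps, which can hold no peak. With stretches of at least 1 Mb without a peak taken out of the rest, the density ratios were 1.92 in DHT, 1.23 in FBS and 2.19 in CSS.

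The ends differed widely among themselves. Counts per end ran from 18 to 90 in DHT (median 39.5), from 27 to 220 in FBS (median 110.5) and from 23 to 101 in CSS (median 51.5). The density of an end was above that of the rest of its chromosome on 20 of 22 chromosomes in DHT, 17 in FBS and 21 in CSS. The interval of the ratio lay wholly above 1 at 15 ends in DHT, 10 in FBS and 18 in CSS, and wholly below 1 at 0, 4 and 1 ends. These intervals are not adjusted for the 22 ends. Across the 22 ends, counts ranked alike in the lists, with Spearman's rho of 0.923 between DHT and CSS, 0.780 between FBS and CSS and 0.753 between FBS and DHT. This is a description of 22 positions of 1 genome.

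**Figure D2:**
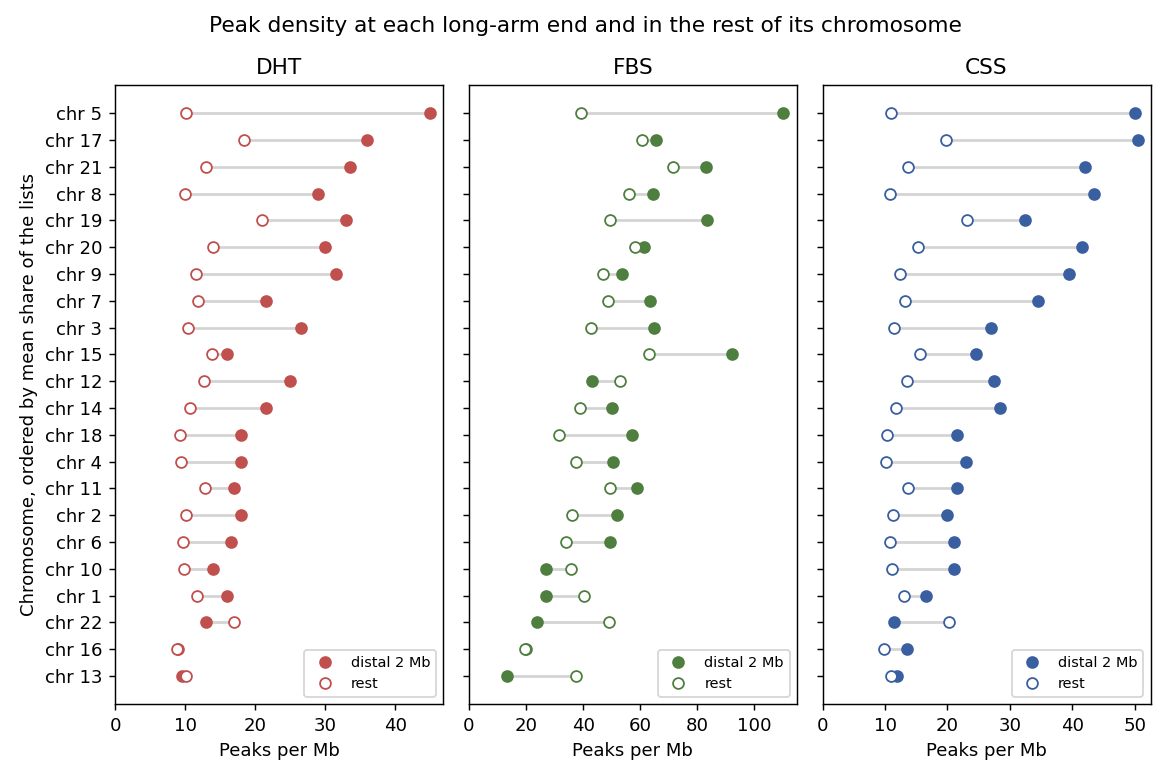
Peaks per Mb (x axis) in the distal 2 Mb (filled points) and in the rest of the same chromosome (open points) for the DHT, FBS and CSS lists, with chromosomes ordered by their mean share of the lists. Chromosome 5 stands out in each list, at 45, 110 and 50 peaks per Mb, and at the ends of chromosomes 13 and 22 the FBS density is below that of the rest of the chromosome.

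The 5 ends that held the most peaks were those of chromosomes 5, 17, 21, 8 and 19, by the mean share of the 3 lists. The end of chromosome 5, from 178899320 to 180899319, held 90 DHT, 220 FBS and 100 CSS peaks. Its density was 4.47 (3.58 to 5.53), 2.79 (2.43 to 3.20) and 4.56 (3.69 to 5.58) times that of the rest of the chromosome, the highest ratio of the 22 ends in each list. Without chromosome 5 the pooled ratios were 1.88 in DHT, 1.21 in FBS and 2.17 in CSS, each still above 1. Chromosome 17 held, from 79177570 onwards, 72 DHT, 131 FBS and 101 CSS peaks at its end, and here the FBS ratio of 1.08 (0.903 to 1.29) did not differ from 1 beyond counting error, against 1.96 (1.53 to 2.49) in DHT and 2.55 (2.07 to 3.12) in CSS. Outside its end, chromosome 17 averaged 60.5 FBS peaks per Mb, against 43.3 over the rest of all autosomes.

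At the end of chromosome 21 there were 67 DHT, 166 FBS and 84 CSS peaks, with ratios of 2.59, 1.16 and 3.06. That of chromosome 8 held 58, 129 and 87, with ratios of 2.89 (2.18 to 3.75), 1.15 (0.957 to 1.37) and 4.00 (3.19 to 4.97). On both chromosomes the rest was also rich in FBS peaks, at 71.4 and 56.2 per Mb. Chromosome 19 held 66, 167 and 65 peaks at its end, with ratios of 1.58 (1.21 to 2.02), 1.69 (1.44 to 1.98) and 1.40 (1.08 to 1.80). It was thus as enriched in FBS as in the lists from depleted serum.

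The 5 ends with the fewest peaks were those of chromosomes 13, 16, 22, 1 and 10. The end of chromosome 13, from 113086405 to 115086404, held 19 DHT, 27 FBS and 24 CSS peaks. In FBS this was 0.360 (0.237 to 0.525) of the density of the rest of the chromosome, the lowest ratio of the 22 ends in that list, against 0.944 (0.566 to 1.48) in DHT and 1.09 (0.696 to 1.63) in CSS. The peak-rich block of the same chromosome from 110000001 to 112000000, which lies outside the end and stops 1.09 Mb short of its border on the centromere side, held 81 DHT, 526 FBS and 70 CSS peaks over the same length of 2 Mb.

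The end of chromosome 22 was below the rest of its chromosome in each list, with 26 DHT, 48 FBS and 23 CSS peaks and ratios of 0.768 (0.497 to 1.14), 0.490 (0.360 to 0.653) and 0.568 (0.358 to 0.859). The interval in DHT included 1. That of chromosome 16 held 18, 40 and 27 peaks, with ratios of 1.02, 1.01 and 1.36, and each of these intervals included 1. Chromosomes 1 and 10 had low FBS density at the end, with 54 FBS peaks each and ratios of 0.668 (0.502 to 0.873) and 0.754 (0.566 to 0.986). In DHT and CSS the end of chromosome 1 held 32 and 33 peaks, with intervals that included 1. That of chromosome 10 held 28 DHT peaks, with an interval that included 1, and 42 CSS peaks, with a ratio of 1.90 (1.36 to 2.58).

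The densest 100 kb window of the ends in DHT and in CSS was the same one, on chromosome 5 from 180599320 to 180699319, with 13 DHT, 20 FBS and 12 CSS peaks. The densest FBS window was also on chromosome 5, from 179399320 to 179499319, with 4 DHT, 24 FBS and 3 CSS peaks. Another window of the same end, from 180299320 to 180399319, held 0 DHT, 20 FBS and 2 CSS peaks. Next in CSS came windows at 158128660 to 158228659 of chromosome 7 (7 DHT, 8 FBS and 11 CSS peaks) and at 80977570 to 81077569 of chromosome 17 (8, 10 and 10). In DHT they were at 139936905 to 140036904 of chromosome 9 (9, 10 and 6) and at 105681005 to 105781004 of chromosome 14 (9, 3 and 9). These windows were singled out after their counts were seen.

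Peaks at the ends were more numerous but not stronger in DHT and CSS. Median fold enrichment, the authors' value for each peak over its background, was 5.34 at the ends and 5.72 in the rest in DHT, 4.00 and 4.59 in FBS, and 5.22 and 5.58 in CSS. By −log10 q, the median end peak stood at percentile 43.4 of the DHT list, against 50.002 in the rest, and at percentile 44.6 of the CSS list, against 49.0 in the rest. In FBS the order was the other way, at percentile 50.5 for end peaks and 45.4 for the rest.

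Strong peaks were a smaller part of the end peaks in DHT and CSS and a larger part in FBS. They numbered 77 at the ends in DHT (7.74%, against 11.8% in the rest and 11.7% of all autosomal peaks), which is -4.07 percentage points of end minus rest (Newcombe -5.61 to -2.20). In FBS there were 153 (6.30%, against 4.72% in the rest and 4.75% of all), a difference of 1.58 points (0.670 to 2.62). In CSS there were 132 (10.6%, against 14.5% in the rest and 14.4% of all), a difference of -3.95 points (-5.59 to -2.09).

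The FBS peaks at the ends combined a typical or high q-value rank with a low fold. A fold enrichment of at least 5 was reached by 428 of them (17.6%, against 32.4% in the rest and 32.1% of all autosomal FBS peaks). The share was 62.1% at the ends and 71.8% in the rest in DHT, where 71.5% of all peaks passed, and 56.5% and 63.9% in CSS, where 63.6% passed. End peaks were slightly wider, with medians of 272 bp at the ends and 249 bp in the rest in DHT, 283 and 258 bp in FBS, and 260 and 239 bp in CSS. Peaks of at least 1000 bp were few at the ends: 7 in DHT (0.704%, against 1.37% in the rest and 1.35% of all), 24 in FBS (0.988%, 0.969% and 0.970%) and 10 in CSS (0.803%, 1.88% and 1.84%). The intervals at the ends and in the rest overlapped in DHT and FBS but not in CSS (0.386 to 1.47% at the ends and 1.74 to 2.03% in the rest).

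The strongest peak of the autosomes by fold enrichment in each list lay in a long-arm end. It was on chromosome 3 from 196625524 to 196625917 in DHT, 1.33 Mb from the last peak, with a fold enrichment of 29.1 in DHT, 23.1 in FBS and 30.2 in CSS, and was called in each list. A peak on chromosome 17 from 79935592 to 79936001 had 19.3 in DHT, 12.98 in FBS and 17.2 in CSS, and ranked 3rd, 43rd and 18th in the autosomal lists. Another on chromosome 17, from 80544027 to 80544547, had 13.2, 11.9 and 7.73.

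The other leaders among the DHT end peaks ranked 29th and 57th by fold in the autosomal list. They were on chromosome 6 (170124583 to 170124969, with 14.3 in DHT, 7.36 in FBS and 12.9 in CSS) and on chromosome 5 from 180427567 to 180427855 (13.5 in DHT, 11.5 in CSS, no FBS partner). Other leaders among the FBS end peaks were at 190802285 to 190802817 of chromosome 4 (ranked 9th) and at 101142058 to 101143250 of chromosome 15 (ranked 85th). The first had a fold of 17.5 in FBS, against 4.88 in DHT and 5.46 in CSS, and lay 0.242 Mb from the last peak. The second, 1193 bp wide, had 11.5 in FBS, against 5.98 in DHT and 10.17 in CSS. Values of different lists depend on the depth of each library, which is unknown, so only the ranks within a list can be read.

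The other leaders among the CSS end peaks ranked 54th, 64th and 79th by fold in the autosomal list. The peak on chromosome 19 from 57454152 to 57454493 was called in each list (11.7 in DHT, 9.06 in FBS, 15.3 in CSS). A pair on chromosome 1 had a DHT partner but no FBS partner, from 249205725 to 249206083 (8.58 in DHT, 14.9 in CSS) and from 247383782 to 247384142 (6.73 in DHT, 14.4 in CSS). That ending at 249206083 lay 0.0337 Mb from the last peak of the chromosome.

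Sharing between lists was examined next. A peak had a partner where a peak of the other list overlapped it by at least 1 bp. FBS peaks at the long-arm ends had a DHT or CSS partner far more often than FBS peaks in the rest. CSS peaks at these ends had a DHT partner less often than CSS peaks in the rest. The rest includes the short-arm ends, which went the same way in both cases, so neither trait was particular to the long-arm ends. At the short-arm ends, 23.3% (21.4 to 25.3%) of FBS peaks had a DHT or CSS partner, against 16.8% in the rest. A DHT partner was present there for 50.5% (47.0 to 53.9%) of CSS peaks, against 57.4%. For the other directions the interval of the difference over all peaks included 0, and with peaks limited by strength or by a stricter overlap some intervals did not.

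Of the 2429 FBS peaks at the ends, 665 (27.4%, 25.6 to 29.2%) had a partner in DHT or CSS, against 16.8% (16.6 to 17.02%) in the rest and 17.02% of all autosomal FBS peaks. The difference was 10.6 points (Newcombe interval 8.82 to 12.4), and the share was above that of the rest of the chromosome at 19 of the 22 ends. The size of the difference varied with the settings and its interval stayed above 0. It was 4.77 points (3.73 to 5.84) with ends of 5 Mb, 5.65 (4.28 to 7.13) where the overlap had to reach 50% of both peaks, 5.52 (4.16 to 6.99) with summits within 100 bp, and 19.01 (15.2 to 22.8) with equal numbers of top peaks by q from each list. FBS peaks of the rest, taken in the same proportions from the 10 parts of the list by q-value, had a partner in 18.3% of cases, below the share at the ends. DHT and CSS peaks were also denser there: they covered 0.759% and 0.917% of the bases of the ends, against 0.358% and 0.397% of the rest. The part of this coverage in the higher share was not tested.

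The end of chromosome 8 had the highest share of the 22, with 61 of 129 FBS peaks partnered (47.3%, against 12.1% in the rest of the chromosome). Chromosomes 17 (58 of 131, 44.3%, against 19.8%) and 9 (42 of 107, 39.3%, against 16.1%) came next. The ends of chromosomes 16 (4 of 40, 10.0%, against 23.9%), 22 (7 of 48, 14.6%, against 23.5%) and 15 (29 of 184, 15.8%, against 16.2%) were the 3 below the rest of their chromosomes. These ends were named after their values were seen.

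CSS peaks at the ends had a DHT partner in 645 of 1246 cases (51.8%, 48.9 to 54.6%), against 57.4% (56.9 to 57.9%) in the rest and 57.2% of all autosomal CSS peaks. The difference was -5.62 points (Newcombe interval -8.45 to -2.81), and the share was above that of the rest of the chromosome at 3 of the 22 ends. CSS peaks of the rest with the same ranks had a partner in 55.6% of cases. The ends held 995 DHT and 1246 CSS peaks, and the rest 31241 and 34273. Fewer DHT peaks for each CSS peak were thus present at the ends, and the part of this in the lower share was not tested. The difference was -12.9 points (-16.997 to -8.70) when both lists were limited to a −log10 q of at least 5, and -3.43 points (-11.5 to 5.21) with strong peaks of both lists, where the interval included 0.

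In the other direction, 627 of 995 DHT peaks at the ends (63.0%, 59.9 to 66.0%) had a CSS partner, against 64.1% in the rest and 64.03% of all. The difference of -1.04 points had a Newcombe interval of -4.14 to 1.95. With a stricter overlap of at least 50% of both peaks it was -5.50 points (-8.59 to -2.35). The DHT peaks at the ends thus matched CSS peaks less closely in position, in a comparison not matched for rank or width. An FBS partner was present for 487 DHT peaks at the ends (48.9%, against 49.3% in the rest and 49.3% of all), a difference of -0.375 points (-3.52 to 2.78). Limited to a −log10 q of at least 5 or 10 in both lists, the difference was 7.35 (2.85 to 11.96) or 19.8 (10.01 to 30.99) points, and limited to a fold of at least 5 it was -6.41 points (-9.30 to -3.13). An FBS partner was present for 539 CSS peaks at the ends (43.3%, against 45.5% in the rest and 45.4% of all), a difference of -2.20 points (-4.98 to 0.617). With strong peaks this difference was 10.4 points (3.62 to 18.5), with a fold of at least 5 it was -7.80 points (-10.4 to -4.81), and with ends of 5 Mb it was -3.82 points (-5.81 to -1.80). In both cases the direction among strong peaks was thus the opposite of that among peaks limited by fold.

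**Figure D3:**
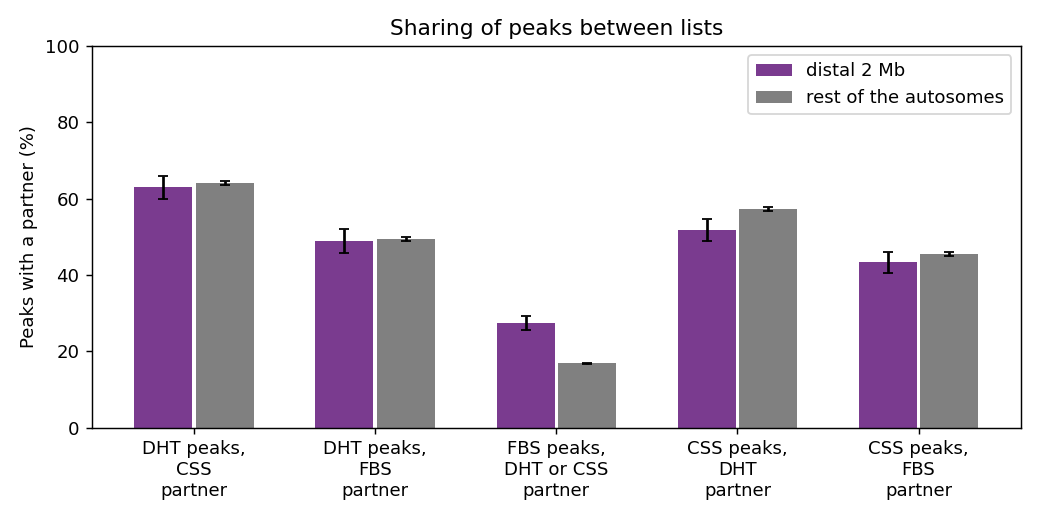
Percentage of peaks with a partner in another list (y axis) at the distal ends and in the rest of the autosomes, for 5 directions of comparison; bars show the share and error bars exact 95% intervals for counting error. The FBS bars differ most, at 27.4% for the ends and 16.8% for the rest.

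The rank classes showed where these differences lay. In parts 1 to 5 of the FBS list by q-value, 14.6% (12.6 to 16.7%) of end peaks and 10.199% of the rest had a partner. In parts 6 to 9 the shares were 29.2% (26.3 to 32.3%) and 15.9%. In the highest part they were 71.5% (66.1 to 76.4%) and 54.5% (53.6 to 55.4%). For CSS peaks with a DHT partner, parts 1 to 5 were alike at both places, 35.9% at the ends and 35.9% in the rest. The difference lay in parts 6 to 9, with 65.2% at the ends and 74.3% in the rest, a difference of -9.18 points (Newcombe interval -13.6 to -5.02). Within the highest part a DHT partner was found for 93.7% (86.8 to 97.6%) of CSS peaks at the ends, against 97.1% in the rest. Of the 66 DHT peaks at the ends in the highest part, 62 had a CSS partner (93.9%, 85.2 to 98.3%), against 95.3% in the rest.

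**Figure D4:**
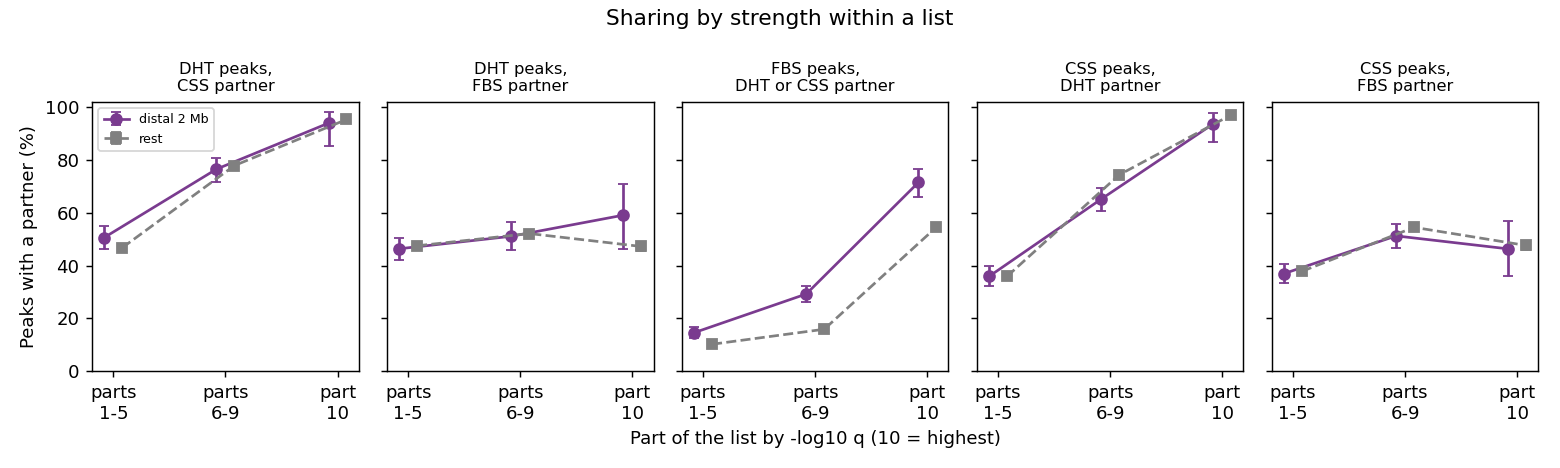
Percentage of peaks with a partner (y axis) in 3 classes of −log10 q rank within a list (x axis, part 10 is the highest), for the distal ends and the rest of the autosomes, with exact 95% intervals. The FBS panel shows a higher share at the ends in each class, 71.5% and 54.5% in the highest.

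Overlapping peaks of the 3 lists were also merged into regions. Of the 3277 merged regions at the ends, 349 (10.7%, 9.61 to 11.8%) held a peak in each list, against 7.64% of the 142533 regions in the rest, a difference of 3.01 points (Newcombe interval 1.99 to 4.12). Regions seen in FBS alone made up a smaller share of the regions at the ends, 1764 (53.8%) against 69.6% in the rest. The difference was -15.7 points (-17.4 to -14.0). Those seen in CSS alone made up a larger share, 429 (13.1%) against 7.08%, as did those in DHT alone, 239 (7.29%) against 4.87%. Regions in DHT and CSS without FBS made up 242 (7.38%) at the ends and 5.64% in the rest. Shares of regions add to a whole, so the shares of the classes depend on each other. Most regions were seen in FBS alone, in both places. The larger share of regions in 3 lists at the ends therefore cannot be read apart from the smaller share in FBS alone. A smaller share at the ends need not mean fewer regions per Mb.

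Strong peaks found in 1 list alone were a smaller part of the strong FBS peaks at the ends than elsewhere. In FBS, 24 of 153 strong end peaks had no partner in either other list (15.7%, against 31.2% in the rest and 30.8% of all strong autosomal FBS peaks), a difference of -15.5 points (Newcombe interval -20.6 to -8.82). In DHT, 5 of 77 had none (6.49%, against 3.42% in the rest and 3.48% of all), and in CSS 6 of 132 (4.55%, against 2.91% and 2.95%), with intervals of the difference that included 0. The 3 with the highest −log10 q in DHT were on chromosome 16 from 89567195 to 89567460 (−log10 q of 12.2), chromosome 9 from 139249493 to 139249970 (11.6) and chromosome 2 from 243062709 to 243063001 (10.7). In FBS they were on chromosome 10 from 135500826 to 135501389 (16.6), chromosome 17 from 79988553 to 79988962 (15.5) and chromosome 2 from 243055162 to 243055472 (15.5). The peak on chromosome 10 lay 0.0232 Mb from the last peak of that chromosome. In CSS they were on chromosome 9 from 140288549 to 140289085 (20.02), chromosome 3 from 196326108 to 196326446 (13.7) and chromosome 20 from 62573352 to 62573756 (12.7).

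The last comparison set the conditions side by side at the ends. The long-arm ends held 3.09% (2.90 to 3.28%) of the autosomal DHT peaks, 1.998% (1.92 to 2.08%) of the FBS peaks and 3.51% (3.32 to 3.70%) of the CSS peaks. The DHT share was 0.880 (0.809 to 0.957) times the CSS share, and the FBS share was 0.569 (0.532 to 0.610) times the CSS share. The pair of ratios has the CSS list in common, and with 1 list per condition neither was tested against replicate error. The DHT list thus had a slightly smaller part of its peaks at the ends than the CSS list, and the FBS list a much smaller part. With strong peaks alone, 77 in DHT and 132 in CSS, the DHT to CSS ratio was 0.793 with an interval of 0.591 to 1.06, which included 1.

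By end, the DHT to CSS ratio was below 1 at 17 of 22 ends, with a range of 0.687 to 1.25 and a median of 0.872. None of the 22 intervals excluded 1, so no single end differed between DHT and CSS beyond counting error. The lowest ratio was on chromosome 7, with 43 DHT and 69 CSS peaks (0.687, 0.458 to 1.02). The highest was on chromosome 22, with 26 DHT and 23 CSS peaks (1.25, 0.683 to 2.28). At the short-arm ends the pooled DHT to CSS ratio was 0.925 (0.835 to 1.02).

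The FBS to CSS ratio was below 1 at 21 of 22 ends, with a range of 0.329 to 1.10 and a median of 0.557. Its interval lay below 1 at 15 ends, those of chromosomes 1, 3, 4, 5, 7, 8, 9, 10, 12, 13, 14, 16, 17, 20 and 21, and above 1 at 0 ends. The lowest ratios were on chromosomes 13 (0.329, 0.183 to 0.595), 10 (0.376, 0.246 to 0.576), 17 (0.379, 0.290 to 0.496) and 9 (0.396, 0.293 to 0.536). The remaining 11 of these ends ranged from 0.433 on chromosome 16 to 0.703 on chromosome 3. The exception in direction was chromosome 15, with 184 FBS and 49 CSS peaks (1.10, 0.797 to 1.54). Limited to strong peaks, the pooled FBS to CSS ratio was 1.03 (0.808 to 1.31), so the smaller share in full serum was not seen among peaks chosen by a −log10 q of 10 or more. With the threshold at 5 the ratio was 0.575 (0.517 to 0.639), and with peaks chosen by a fold enrichment of 5 or more it was 0.352 (0.312 to 0.398). At the short-arm ends the FBS to CSS ratio over all peaks was 0.636 (0.586 to 0.691).

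**Figure D5:**
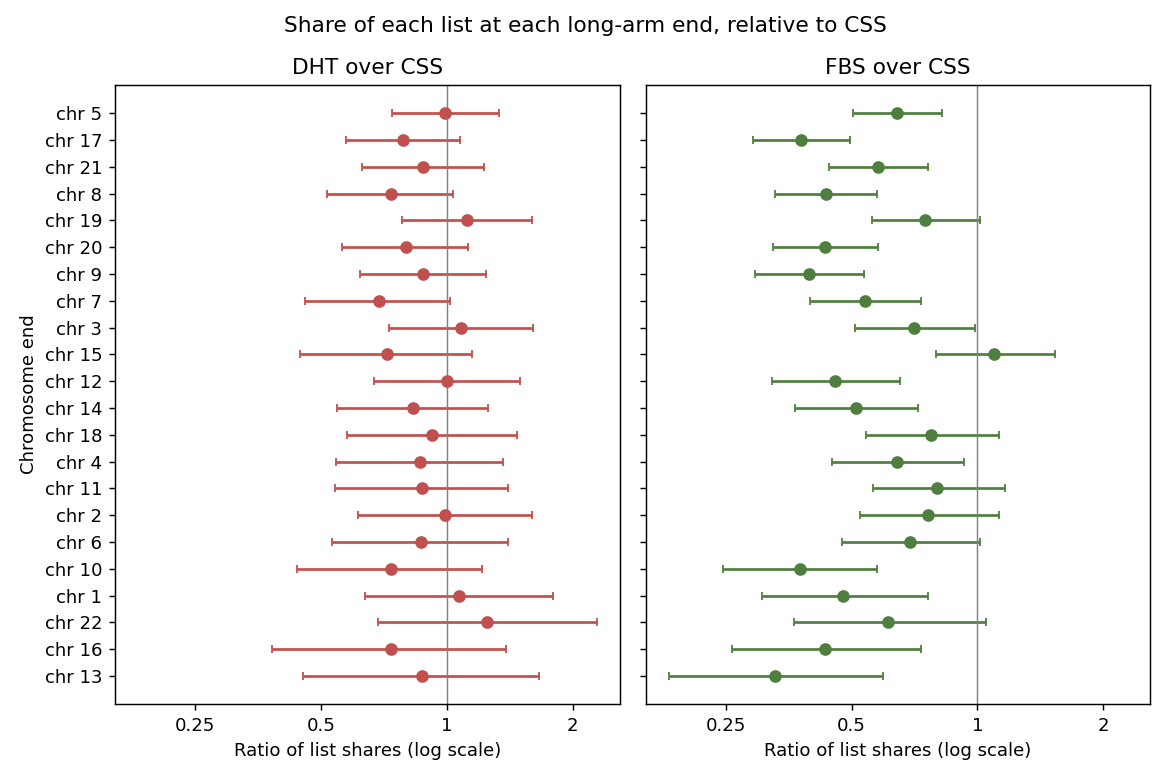
Share of the autosomal DHT list (left) and FBS list (right) at each long-arm end divided by the share of the CSS list (x axis, log scale), with exact 95% intervals for counting error; the grey line marks 1. All 22 DHT intervals include 1, and 15 of the 22 FBS intervals lie below it.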

How the data were processed

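ZBTB7A ChIP-seq of 5 VCaP libraries was deposited by the authors as 3 narrowPeak lists, 1 per condition. The sources used here do not give how libraries were combined, which control was used, the q threshold, or how duplicate and multiply mapped reads were filtered. The submitters' processing notes name MACS2 2.0.10.20131216, BWA 0.7.2-r351, SAMtools 0.1.18 and the build hg19. Each peak has a fold enrichment (a ratio over background) and a −log10 q deposited by the authors, and a deposited score that is the whole part of 10 times the −log10 q. Ranks and medians of these values were taken within a list. Fixed thresholds on q and fold were applied to all 3 lists, and the peaks that passed were then compared between lists. Without read totals the depth of the libraries is unknown. The length of a list can vary with it, as can the part of a list that passes a threshold.

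Ends covered 44 Mb and the rest 2752 Mb, measured from the lowest peak of each chromosome and including unassembled gaps. Ratios have exact conditional binomial intervals, shares Clopper-Pearson intervals, and differences of shares Newcombe intervals, all at 95%. Merged regions were placed by their midpoint. No test was made between conditions. Alternatives were the end size (1 or 5 Mb), thresholds on q and fold, equal numbers of top peaks, the anchor, the overlap rule, the length of the rest and the chromosomes used. Named peaks were the 5 with the highest fold at the ends of each list and the 3 with the highest −log10 q without partner. Named ends were the 5 richest and 5 poorest by mean list share and those whose FBS to CSS interval excluded 1. Windows, and ends named for other values, were chosen after the values were seen. The members and lists were chosen with earlier results of these data known. The code was tested on simulated data. The tools were matplotlib 3.10.9, scipy 1.17.1, pandas 2.3.3, numpy 2.4.6 and Python 3.11.15.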

Additional observations from a re-analysis of the deposited data

Results flagged for a closer look

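The contrast of end against rest differed between lists, with intervals of the ratio that excluded 1. These intervals take peaks as independent and are too narrow. The share of the list at the long-arm ends, DHT over CSS, was 0.880, with an interval below 1. The corresponding value for FBS over CSS was 0.569, also with an interval below 1. Both rest on 1 list per condition. Limited to strong peaks (−log10 q of 10 or more) the values were 0.793 and 1.03, and both intervals then included 1. Limited to a fold enrichment of 5 or more they were 0.860 and 0.352, with intervals below 1. At the short-arm ends, over all peaks, they were 0.925 (0.835 to 1.02) and 0.636 (0.586 to 0.691).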

How the results depend on the processing

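Of 98 values under alternatives, 78 counted as unchanged. For density ratios and differences this meant the same direction and an interval that still excluded, or still included, no difference. For ratios of list shares it meant a value within the interval of the main setting. Every density ratio was unchanged except that of FBS at a fold enrichment of at least 5 (0.694). Values that changed follow, as differences in percentage points of end minus rest unless named a ratio. For DHT peaks with an FBS partner they were 1.09 with ends of 1 Mb, 7.35 and 19.8 at a −log10 q of at least 5 and 10, -6.41 at a fold of at least 5, 0.828 with equal numbers of top peaks, 1.53 without the acrocentric chromosomes and 0.0689 with 50% overlap. For DHT peaks with a CSS partner they were 0.644 with ends of 1 Mb, 6.77 at a −log10 q of at least 10, -5.50 with 50% overlap and -4.52 with summits within 100 bp. For CSS peaks with an FBS partner they were -3.82 with ends of 5 Mb, 10.4 at a −log10 q of at least 10 and -7.80 at a fold of at least 5, and for CSS peaks with a DHT partner -3.43 at a −log10 q of at least 10. The difference for FBS peaks with a DHT or CSS partner stayed above 0 under these alternatives, between 4.77 with ends of 5 Mb and 19.01 with equal numbers of top peaks. The ratio of list shares was 0.714 with ends of 5 Mb, 1.03 at a −log10 q of at least 10 and 0.352 at a fold of at least 5 for FBS over CSS, and 0.793 at a −log10 q of at least 10 for DHT over CSS. The values of 0.714 and 0.352 kept their direction, with intervals below 1. The cause was not tested.

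With each chromosome left out in turn, density ratios ranged from 1.88 to 2.04 in DHT, 1.21 to 1.31 in FBS and 2.17 to 2.36 in CSS. Ratios of list shares ranged from 0.867 to 0.891 for DHT over CSS and from 0.551 to 0.593 for FBS over CSS. Differences ranged from -1.71 to -0.377 (DHT peaks with a CSS partner), -1.52 to 0.571 (DHT with FBS), 9.11 to 11.5 (FBS with DHT or CSS), -6.71 to -4.44 (CSS with DHT) and -3.52 to -1.34 (CSS with FBS). For CSS with FBS the interval excluded 0 without chromosome 5 (-3.42), 8 (-3.52) or 19 (-3.08). No paired analysis was possible because each condition has 1 peak list and no values per library.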

Other observations

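Summits of shared sites lay farther apart at the ends for the lists from depleted serum. For DHT peaks with a CSS partner, the median distance between summits was 81 bp at the ends (627 peaks) and 64 bp in the rest (20013 peaks), and 58.1% and 64.9% of them lay within 100 bp. For FBS peaks with a CSS partner the medians were 124 bp at the ends and 121 bp in the rest, and for DHT peaks with an FBS partner 119 and 113 bp. DHT and CSS peaks at the ends were also wider and lower in rank by q than those of the rest. The distances were not matched for width or rank. In the last 0.1 Mb of the 22 ends together there were 66 DHT, 181 FBS and 87 CSS peaks, with median fold enrichments of 5.54, 4.36 and 5.22. These are given as values, with no test.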
